A study of Mus musculus with 8 samples.

Results

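Small leucine-rich proteoglycans were measured in microdissected mouse atrioventricular canals, where endocardial cushions form and later become valves. The 7 genes considered were Bgn, Dcn, Lum, Fmod, Ogn, Aspn and Prelp. Every probe set annotated with one of these symbols alone was taken, which gave 18 of the 45101 probe sets of the Affymetrix mouse array. Among the 18, 13 probe sets of 6 genes passed a filter on dim signals and were tested, and the remaining 5, among them both probe sets of Prelp, are described by their values.

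The mutant group held 4 arrays of Gata4flox/flox; T2Cre+ canals (Gata4T2del), and the control group 4 arrays of Gata4flox/flox canals, not labelled as carrying Cre. T2Cre is Cre recombinase driven by Tie2 sequences, which act in endothelium and so also mark the cushion mesenchyme that descends from it. The canal muscle was not targeted, and loss of Gata4 and presence of Cre cannot be told apart in this design. Each array was hybridised with 1 pool of 10 microdissected canals, from 50 ng of total RNA amplified isothermally, and all mice had a mixed C57BL6/129 background. The sources used here do not give the age of the embryos. Nothing says that pools came from separate litters, so the p-values measure only the spread between these pools. In whole canals, fewer cells of a type and less RNA per cell cannot be told apart.

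Small leucine-rich proteoglycans are secreted proteins built around leucine-rich repeats, most of which bind collagen fibrils and influence how thick the fibrils grow. Biglycan and decorin carry chondroitin or dermatan sulfate chains, while lumican, fibromodulin and osteoglycin can carry keratan sulfate. Several members also bind transforming growth factor beta. In the heart they are best known from the matrix of the valves, which forms as cushion mesenchyme matures.

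Several of the genes lie side by side in the mouse genome, as listed by RefSeq for assembly GRCm38.p6. On chromosome 10, Dcn is followed by Lum, Kera and Epyc. On chromosome 13, Ecm2, Aspn, Omd and Ogn are consecutive protein-coding genes. On chromosome 1, Prelp lies between Optc and Fmod. Bgn lies on the X chromosome between Haus7 and Atp2b3, with no family member beside it. Upstream sequence was found in the RefSeq promoter table for 5 of the 7 genes, Bgn, Fmod, Ogn, Aspn and Prelp.

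Since the deleted gene encodes a factor that binds GATA sites, the 250 bases before each start were searched on both strands for GATA directly preceded by A or T and directly followed by A or G. A match was present in 1 of the 5, that of Fmod, and in 26.5% of the 32851 promoters of the table. The Fmod match begins 157 bases before the start. The upstream stretches of Bgn, whose probe sets differed most from each other, and of Fmod are printed below 5′ to 3′ on the plus strand of GRCm38.p6, from chrX:73483351-73483600 and chr1:134037004-134037253, with the GATA match in capitals.
Bgn: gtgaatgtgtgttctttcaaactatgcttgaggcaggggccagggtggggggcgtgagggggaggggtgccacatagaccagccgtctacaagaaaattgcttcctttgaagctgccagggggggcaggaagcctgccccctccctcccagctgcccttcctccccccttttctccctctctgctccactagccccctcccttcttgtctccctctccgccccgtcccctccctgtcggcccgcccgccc
Fmod: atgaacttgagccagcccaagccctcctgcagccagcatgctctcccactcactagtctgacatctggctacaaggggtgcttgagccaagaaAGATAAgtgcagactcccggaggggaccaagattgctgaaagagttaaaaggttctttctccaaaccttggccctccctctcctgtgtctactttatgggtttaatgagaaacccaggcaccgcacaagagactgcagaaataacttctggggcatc
The Bgn stretch holds no match and consists of G and C at 64.4% of its bases, against 51.2% for Fmod and 30% for Aspn. A match describes these letters only.

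Arrays are compared below as quantile normalized log2(signal + 16) values. Above background means a deposited signal higher than the 90th percentile of the array's own 27 bacterial control probe sets. This threshold was 21.4 to 65.4 signal units on the mutant arrays and 51.1 to 316 on the control arrays. It was highest on controls 2 and 3, at 316 and 270, and those arrays also had the lowest weights in the fit, 0.302 and 0.35, against 0.867 to 2.80 on the remaining 6. Per the design text, noise led to the exclusion of 2 controls that it does not name, and all 4 deposited controls were kept here. Results are given with and without controls 2 and 3 where these arrays bear on them, and values without them come from a fit without array weights. Gata4 itself, on its brightest probe set, read 11.10, 11.28, 11.18 and 10.93 on mutants 1 to 4, and 11.15, 11.07, 11.42 and 11.38 on controls 1 to 4, with a change of -0.15 (SE 0.11, limma adjusted p = 0.585). A dimmer Gata4 probe set ran from 7.68 to 7.94 on mutants and from 5.05 to 8.13 on controls, with a change of 0.98 (SE 0.46, limma adjusted p = 0.388). The groups overlapped on both, and since Gata4 is also active in the untargeted muscle of the canal, neither checks the deletion or the labels.

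No member passed the test between mutant and control canals. In the limma fit over 27022 probe sets, 0 of the 13 tested member probe sets were called higher and 0 lower at a Benjamini-Hochberg adjusted p under 0.05, where 0.0444% of all probe sets were called, 0.0259% higher and 0.0185% lower. At an unadjusted p under 0.05 there were 2 of 13 members, Dcn higher and Bgn lower on their brightest probe sets, against 12.6% of all probe sets, 7.31% higher and 5.33% lower. After quantile normalization the groups did not overlap for 2 of 13, against 7.63% of all probe sets, 4.44% higher and 3.19% lower. These were 1 Bgn and 1 Dcn probe set, higher on every mutant array, and on both the groups overlapped in the deposited signal. With 13 probe sets, these counts lay near the background of the array. Of the 13 fitted changes, 7 were above the median change of all probe sets and 6 below. That split was 4 to 8 of 12 on the authors' scaling and 3 to 9 of 12 with each array centred on its own median. It leaned the other way, at 10 to 2 of 12, without controls 2 and 3 where array weights were kept, at 8 to 3 of 11 without control 3, and at 11 to 7 of 18 with no filter, so the family has no common direction that holds under every setting.

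**Figure D1:**
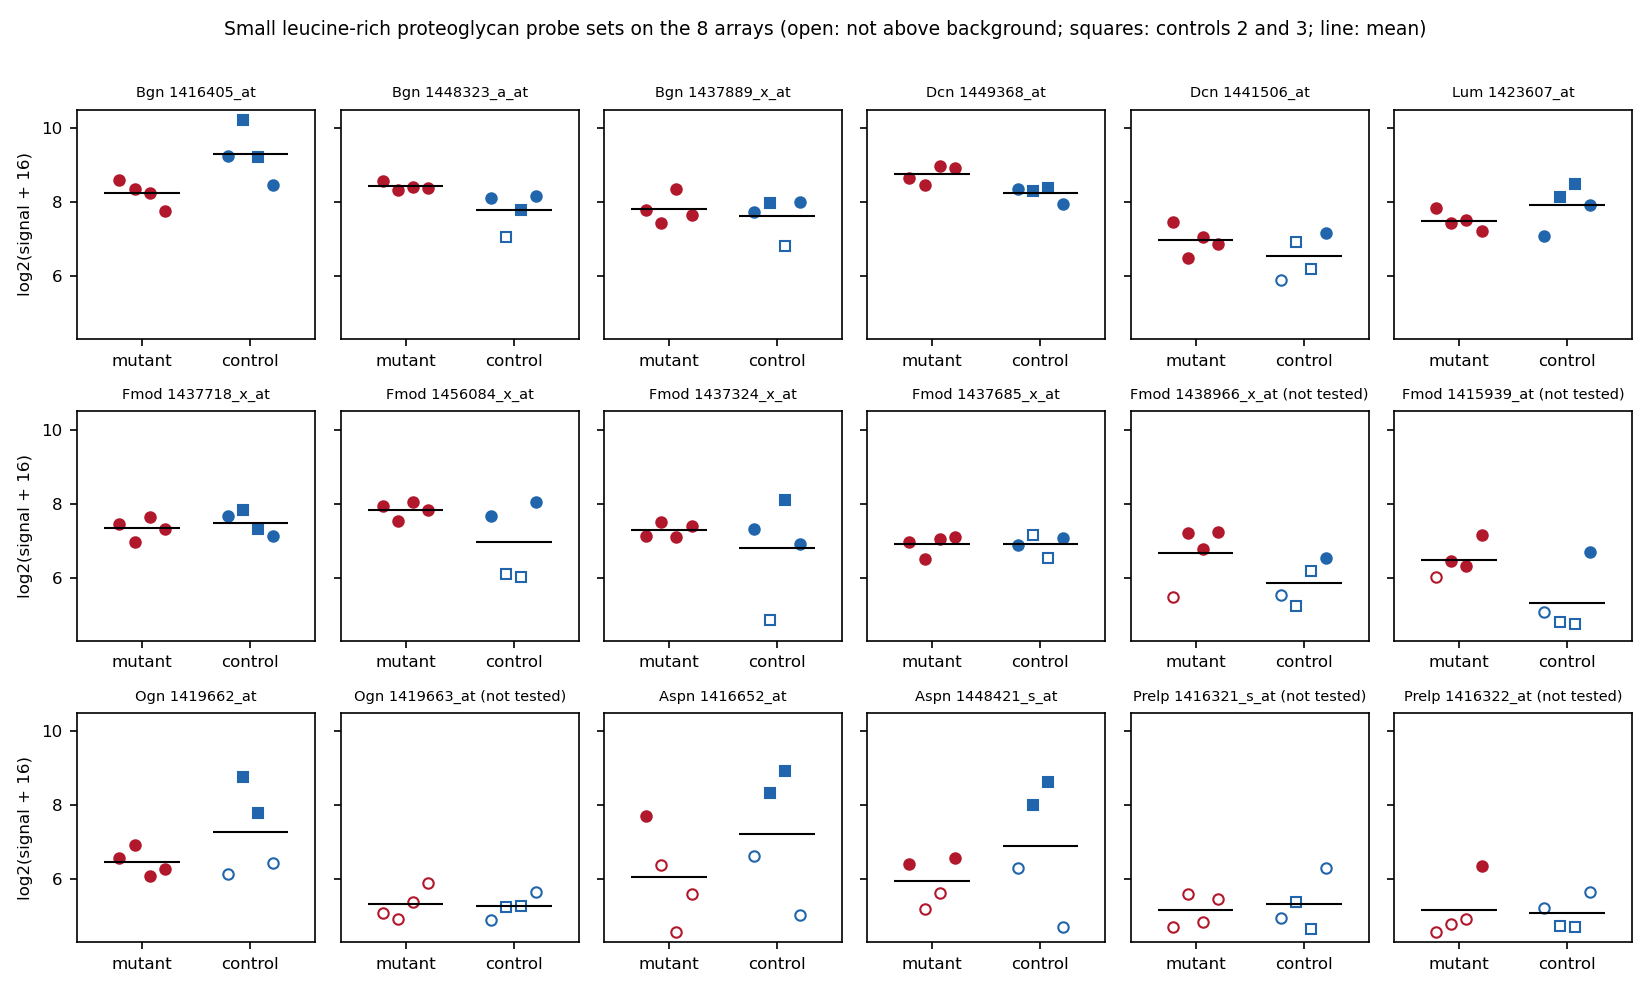
Quantile normalized log2(signal + 16) of all 18 probe sets on the 4 mutant arrays (left in each panel, red) and the 4 control arrays (right, blue), with the group mean as a line. Open symbols were not above background and squares are controls 2 and 3, which carry the highest values of Lum, Ogn 1419662_at and both Aspn probe sets.

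Among the class that carries chondroitin or dermatan sulfate, biglycan gave values that depended on the probe set. Its brightest probe set, 1416405_at, read 8.59, 8.36, 8.25 and 7.76 on mutants 1 to 4, and 9.24, 10.22, 9.23 and 8.47 on controls 1 to 4. Mutant values were lower except that control 4 lay below mutant 1, so the groups overlapped. The means were 8.24 ± 0.35 in mutants and 9.29 ± 0.72 in controls (SD, n = 4 each). The fitted change was -0.95 on the log2 scale (SE 0.27, 95% interval -1.52 to -0.38), and in limma's fit over all probe sets it did not pass, with an adjusted p of 0.240.

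The next Bgn probe set, 1448323_a_at, ran the other way. It read 8.58, 8.34, 8.40 and 8.39 on mutants 1 to 4, and 8.12, 7.06, 7.79 and 8.16 on controls 1 to 4, so that every mutant array lay above every control array. The means were 8.43 ± 0.11 in mutants and 7.78 ± 0.51 in controls (SD, n = 4 each), with a change of 0.44 (SE 0.25, 95% interval -0.08 to 0.96, limma adjusted p = 0.466). On control 2 it was not above background. In the deposited signal its groups overlapped, at 223.5 to 342.6 on mutants and 235.3 to 360.6 on controls. On the authors' scaling its change was 0.15 (limma adjusted p = 0.762). Per the platform annotation, both probe sets were designed from the same transcript record.

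The disagreement was also present within single arrays. The difference between 1416405_at and 1448323_a_at was 0.00, 0.02, -0.15 and -0.63 log2 units on mutants 1 to 4, and 1.12, 3.16, 1.44 and 0.31 on controls 1 to 4. Over the 8 arrays the probe sets correlated at r = -0.88, and at r = -0.47 over the 6 arrays without controls 2 and 3. Genotype, background and normalization are shared by these points, and the pair was looked at after its values were seen, so no test is given. The third Bgn probe set, 1437889_x_at, ran from 7.45 to 8.36 on mutants and from 6.83 to 7.99 on controls, with a change of 0.19 (SE 0.32, limma adjusted p = 0.833). The suffix _x marks probe sets that can bind other transcripts. The direction of Bgn therefore cannot be given for the gene as a whole.

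**Figure D2:**
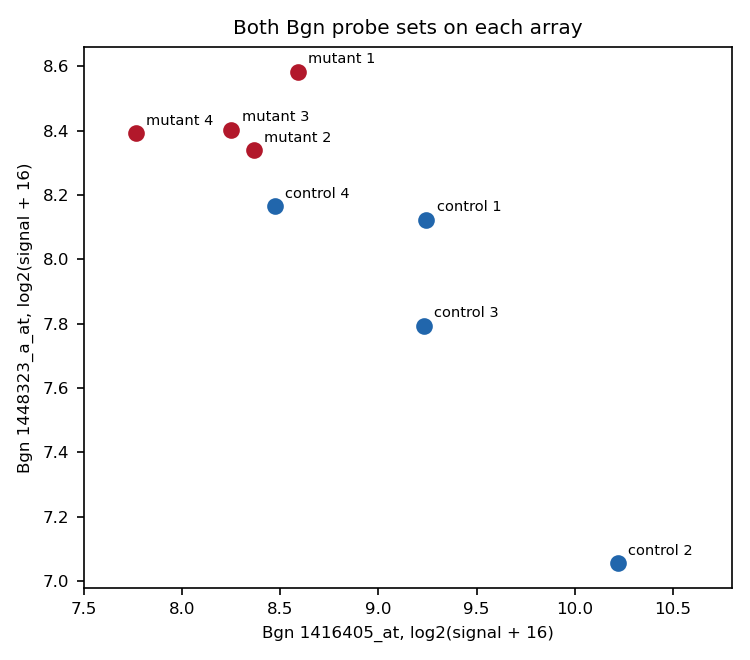
Each point is 1 array, placed by the log2(signal + 16) of Bgn 1416405_at on the horizontal and of Bgn 1448323_a_at on the vertical axis, mutants in red and controls in blue. Control 2 has the highest value of the first (10.22) and the lowest of the second (7.06), and the 4 mutants sit at 8.34 to 8.58 on the vertical axis.

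The size and the call of Bgn 1416405_at depended on single control arrays. Without control 4 it was lower by a log2 change of -1.38 (adjusted p = 0.026), and without control 1 by -1.22 (adjusted p = 0.0457), both past the threshold, in fits that called 1662 and 1680 probe sets in all. Without controls 2 and 3 it was -0.70 (adjusted p = 0.650). Its signal over the background threshold of the array was 4.42 to 12.03 times on mutants and 2.49 to 6.09 times on controls, and by this ratio the groups overlapped.

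Decorin, the closest relative of biglycan, had higher values in mutants on its brightest probe set, without overlap of the groups after quantile normalization. This probe set, 1449368_at, read 8.67, 8.48, 8.98 and 8.92 on mutants 1 to 4, and 8.37, 8.31, 8.38 and 7.94 on controls 1 to 4. All 4 mutants lay above all 4 controls, and mutant 2 exceeded control 3 by the smallest margin. The means were 8.76 ± 0.23 in mutants and 8.25 ± 0.21 in controls (SD, n = 4 each). The fitted change was 0.61 (SE 0.22, 95% interval 0.15 to 1.08), 1.53-fold, and did not pass in limma's fit (adjusted p = 0.307). In the deposited signal the groups overlapped, at 249.2 to 491.7 on mutants and 191.5 to 466.8 on controls. On the authors' scaling the change was 0.46 (limma adjusted p = 0.314).

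The second Dcn probe set, 1441506_at, was above background on 4 mutant arrays and on 1 control array. It read 7.47, 6.48, 7.05 and 6.88 on mutants 1 to 4, and 5.90, 6.92, 6.20 and 7.16 on controls 1 to 4. The groups overlapped, with a change of 0.57 (SE 0.44, limma adjusted p = 0.597). Both Dcn probe sets thus had positive changes of like size, and neither passed. Without controls 2 and 3 the changes were 0.69 for 1449368_at and 0.43 for 1441506_at. With each array centred on its own median, where the median change of all probe sets was 1.13, 1449368_at lay 0.22 above that median and 1441506_at lay 0.66 below it, so the direction of the dimmer probe set turned with the scaling.

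Asporin, a relative of decorin, was measured on few arrays. Probe set 1416652_at was above background on 1 mutant and 2 control arrays, and 1448421_s_at on 2 and 2. Probe set 1416652_at read 7.73, 6.38, 4.58 and 5.59 on mutants 1 to 4, and 6.64, 8.33, 8.92 and 5.02 on controls 1 to 4. Values for 1448421_s_at were 6.42, 5.20, 5.62 and 6.57 on mutants 1 to 4, and 6.31, 7.998, 8.63 and 4.71 on controls 1 to 4. On both probe sets controls 2 and 3 were highest and control 4 was within or below the mutants. The changes were -0.93 (SE 0.78, limma adjusted p = 0.634) and -0.26 (SE 0.63, limma adjusted p = 0.889), with intervals of -2.60 to 0.73 and -1.58 to 1.062. Without controls 2 and 3 neither Aspn probe set passed the filter, so no change without them is given.

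**Figure D3:**
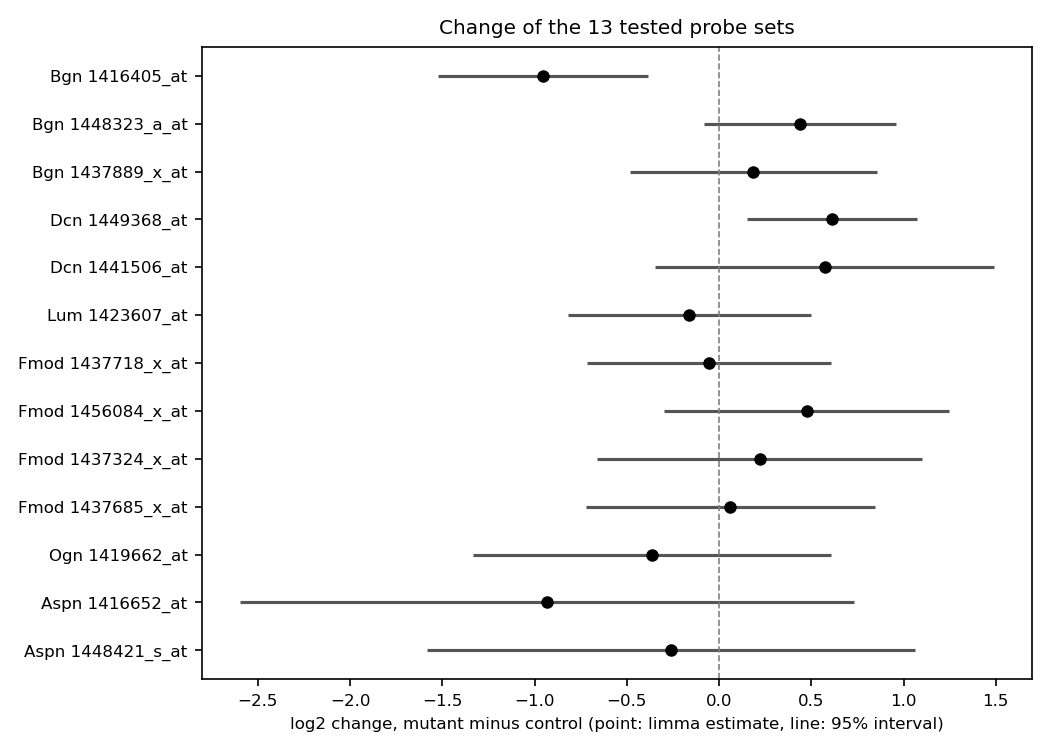
Log2 change, mutant minus control, of the 13 tested probe sets (points, limma estimates) with 95% intervals (lines). The intervals of Bgn 1416405_at (-1.52 to -0.38) and Dcn 1449368_at (0.15 to 1.08) lie on opposite sides of 0, all others span it, and none of the 13 passed after adjustment over all probe sets.

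Among the members that can carry keratan sulfate, lumican, which binds collagen and keeps the cornea clear, had a single probe set, 1423607_at, above background on all 8 arrays. It read 7.85, 7.43, 7.51 and 7.22 on mutants 1 to 4, and 7.10, 8.14, 8.49 and 7.92 on controls 1 to 4. Controls 2, 3 and 4 lay above every mutant, and control 1 below every mutant. The change was -0.16 (SE 0.31, 95% interval -0.82 to 0.50, limma adjusted p = 0.856), while the plain difference of means, mutant minus control, was -0.41. Lum depended on single control arrays, with -0.82 without control 1, -0.54 without control 4 and 0.12 without control 3, of which none passed, and its change was -0.01 without controls 2 and 3.

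Fibromodulin, a collagen-binding member that also binds transforming growth factor beta, had 6 probe sets, of which 5 carry the suffix _x. The 4 tested ones had changes of -0.05 (1437718_x_at), 0.47 (1456084_x_at), 0.22 (1437324_x_at) and 0.06 (1437685_x_at), with SEs of 0.31 to 0.42 and limma adjusted p of 0.602 to 0.963. Mutant arrays were closely grouped on 1456084_x_at, with 7.94, 7.54, 8.05 and 7.83, whereas controls read 7.68, 6.11, 6.03 and 8.05. Controls 2 and 3 were low there, and without them the change was -0.02. On 1437324_x_at the same arrays went apart from each other, with 4.85 on control 2 and 8.10 on control 3. The probe set without the suffix, 1415939_at, did not pass the filter. It was above background on 3 mutant arrays and 1 control array and read 6.02, 6.47, 6.31 and 7.15 on mutants 1 to 4, and 5.06, 4.81, 4.75 and 6.69 on controls 1 to 4. Its values were higher in mutants by 1.16 on the mean, with control 4 inside the range of the mutants. The other untested Fmod probe set, 1438966_x_at, was above background on 3 mutant arrays and 1 control array, and ran from 5.48 to 7.24 on mutants and from 5.23 to 6.54 on controls.

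Osteoglycin, also called mimecan, was above background on 4 mutant and 2 control arrays with 1419662_at. It read 6.58, 6.94, 6.08 and 6.29 on mutants 1 to 4, and 6.13, 8.77, 7.79 and 6.43 on controls 1 to 4. Controls 2 and 3 stood above all others, and controls 1 and 4 lay within the mutant range. The change was -0.36 (SE 0.46, 95% interval -1.33 to 0.61, limma adjusted p = 0.766), and 0.19 without controls 2 and 3. The second Ogn probe set, 1419663_at, was not above background on any array and did not follow the first, with r = -0.16 over the 8 arrays.

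Prelp, a collagen and heparan sulfate binding member with a basic N-terminal region, was not detected in most pools. Probe set 1416321_s_at was not above background on any array, and 1416322_at only on mutant 4. The log2 values ran from 4.72 to 5.61 on mutants and from 4.67 to 6.30 on controls for 1416321_s_at, and from 4.58 to 6.37 and from 4.71 to 5.66 for 1416322_at. No size of change is given for either, since both groups lay at background. At this signal a difference in Prelp was not detectable.

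Controls 2 and 3 were the 2 highest arrays for 4 of the 13 tested member probe sets, Lum 1423607_at, Ogn 1419662_at and both of Aspn. Of all tested probe sets, 14.6% had these arrays highest. Without controls 2 and 3 neither Aspn probe set passed the filter, so both were tested only through the arrays counted here. Aspn and Ogn are near neighbours on chromosome 13, and a dim probe set of Ecm2, which adjoins Aspn and encodes a leucine-rich matrix protein, read 4.72 to 6.22 on mutants, 7.53 and 8.22 on controls 2 and 3, and 5.20 and 5.95 on controls 1 and 4. Omd, which lies between Aspn and Ogn, did not share that pattern, with 7.99 to 8.16 on mutants, 8.32 and 6.73 on controls 2 and 3, and 7.47 and 8.38 on controls 1 and 4. Background was raised on the same arrays, and its part in the pattern was not tested.

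Correlations between members depended on these arrays. Between the brightest tested probe sets, the highest correlations over the 8 arrays were Bgn with Ogn (r = 0.79), Ogn with Aspn (r = 0.76) and Lum with Ogn (r = 0.72). Without controls 2 and 3 they were -0.12, 0.44 and 0.32 over 6 arrays. Dcn had negative correlations with Bgn (r = -0.50) and Lum (r = -0.43), and these were -0.51 and -0.37 without controls 2 and 3. The points share array, normalization and background, so these values describe the arrays only.

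Of 12068 other named genes, those with profiles most like each member over the 8 arrays were taken by Pearson's r. For Bgn 1416405_at they were Vps9d1 (r = 0.98), Sema5a (r = 0.98) and Tmem14a (r = 0.97), and for Dcn 1449368_at Cdk16 (r = 0.91), Cpe (r = 0.89) and Tppp3 (r = 0.89). For Lum they were Slc3a1, Kat8 and Acpp, with r from 0.95 to 0.96, for Fmod 1437718_x_at Lamp2, Bach1 and Dck, also from 0.95 to 0.96, for Ogn 1700023G09Rik, Usp8 and Pisd, from 0.976 to 0.985, and for Aspn Zfp712, Psg28 and 4930544M13Rik, at 0.97. No other member of the family and no collagen was among them.

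Of 12 further small leucine-rich proteoglycans listed, 10 had a probe set and only 2 passed the filter, Podn and Omd. Podocan, Podn, read 6.71, 7.67, 6.43 and 6.02 on mutants 1 to 4, and 7.52, 7.90, 7.03 and 7.20 on controls 1 to 4, with a change of -0.91 (SE 0.41, limma adjusted p = 0.379). Osteomodulin, Omd, had a change of 0.33 (SE 0.29, limma adjusted p = 0.651), which lay 0.02 below the median of all probe sets with median-centred arrays. Epyc and Chad were not above background on any array. Kera, the neighbour of Lum, was above background on 1 control array, and Optc, the neighbour of Prelp, on 3 mutant arrays and no control array.

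Of 6 tested genes for large proteoglycans and link proteins of the cushion, 0 passed on the brightest probe set, 5 were negative and the median was -0.15, against 46.8% negative and a median of 0.02 over all 12069 genes tested. Versican, Vcan, the main chondroitin sulfate proteoglycan of cushion jelly, read 13.53, 13.50, 13.55 and 13.39 on mutants 1 to 4, and 13.62, 13.59, 13.59 and 13.63 on controls 1 to 4, with no overlap and a change of -0.13 (SE 0.05, limma adjusted p = 0.351). Over all 15 probe sets of this list 2 were called lower, against 0.0185% of all probe sets, both of the link protein gene Hapln1. Their changes were -0.90 each (limma adjusted p = 0.00672 and 0.0437), and neither passed without controls 2 and 3 (-0.87 and -0.95, adjusted p = 0.126 for both). The brightest Hapln1 probe set had a change of -0.16 (SE 0.06, limma adjusted p = 0.294), with overlapping groups. With median-centred arrays Vcan lay 0.40 above the median of all probe sets, so its direction turned. The median of the list without controls 2 and 3 was 0.00, with 3 of 6 negative, and with median-centred arrays it lay 0.41 above that of all probe sets.

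Of the enzymes that build chondroitin and dermatan sulfate chains, 17 of 22 were tested, 0 passed, 11 were negative and 6 positive, with a median of -0.08. The median was -0.13 without controls 2 and 3. With median-centred arrays it lay 0.29 above that of all probe sets, so the direction of the list turned. Csgalnact1, which adds the first N-acetylgalactosamine of a chondroitin chain, read 7.61, 7.28, 7.92 and 7.94 on mutants 1 to 4, and 8.88, 8.44, 8.42 and 8.70 on controls 1 to 4. Every mutant lay below every control, with a change of -0.93 (SE 0.25, limma adjusted p = 0.219), while leaving out controls 2 and 3 gave -1.26. The sulfotransferase Chst11 had a change of -0.63 (SE 0.26, limma adjusted p = 0.357) and the xylose kinase Fam20b one of -0.36 (SE 0.15, limma adjusted p = 0.359). Csgalnact2, the relative of Csgalnact1, had a positive change of 0.69 (SE 0.35, limma adjusted p = 0.422), with 2 control arrays above background and a change of 0.19 without controls 2 and 3.

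Of the enzymes of keratan sulfate synthesis, 10 of 12 were tested and 0 passed, with 7 positive, 3 negative and a median of 0.18. The galactosyltransferase B4galt4 had the smallest p and a change of 0.89 (SE 0.45, limma adjusted p = 0.427), with signal above background on only 2 controls and a change of 0.26 without controls 2 and 3. The median of the list was 0.04 without those arrays.

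Among the 12 tested collagens, 0 passed, 5 were positive and 7 negative, with a median of -0.12. Col3a1, the fibrillar collagen of compliant tissues, read 10.70, 10.84, 11.12 and 10.08 on mutants 1 to 4, and 11.13, 11.74, 11.76 and 11.11 on controls 1 to 4, with a change of -0.60 (SE 0.32, limma adjusted p = 0.472). Col2a1, the cartilage collagen, had a change of 0.39 (SE 0.17, limma adjusted p = 0.363) with no overlap, and of 0.20 without controls 2 and 3. Col6a3 had one of -0.98 (SE 0.47, limma adjusted p = 0.398), and of -0.66 without those arrays. Without controls 2 and 3, 11 of the 12 were negative and the median was -0.14.

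Of 17 tested growth factors and receptors that members of the family bind, 0 passed, 13 were positive and 4 negative, with a median of 0.18. Tlr4, an innate immune receptor that recognises soluble biglycan, was above background on 4 mutant arrays and on 0 of 4 control arrays. It read 7.21, 7.84, 7.81 and 7.13 on mutants 1 to 4, and 5.78, 6.69, 5.70 and 6.5 on controls 1 to 4. Every mutant lay above every control. The fitted change of 1.40 (SE 0.42, limma adjusted p = 0.245) did not pass and rests on controls that were not above background. After quantile normalization, the mean of the mutants was at least 1.46-fold higher than that of the controls set at the lowest signal above background. That bound was not tested. It is no bound on the deposited signal, since background thresholds were 51.1 to 316 units on controls and 21.4 to 65.4 on mutants. With median-centred arrays Tlr4 lay 0.28 above the median of all probe sets. Thbs1, an activator of transforming growth factor beta, had a change of -0.87 (SE 0.40, limma adjusted p = 0.408).

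Of 9 tested proteases that process or cut these proteins, 0 passed, with 5 positive, 4 negative and a median of 0.05. Without controls 2 and 3 the median was -0.18, with 6 of 9 negative. With median-centred arrays it lay 0.25 below that of all probe sets, so the direction of the list turned. The aggrecanase Adamts4 had a change of 1.49 (SE 0.54, limma adjusted p = 0.331), which was 0.73 without controls 2 and 3, and controls 2 and 3 gave no signal above background. Adamts9, which cuts versican, had a change of 0.16 (SE 0.07, limma adjusted p = 0.341), and its groups did not overlap.

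**Figure D4:**
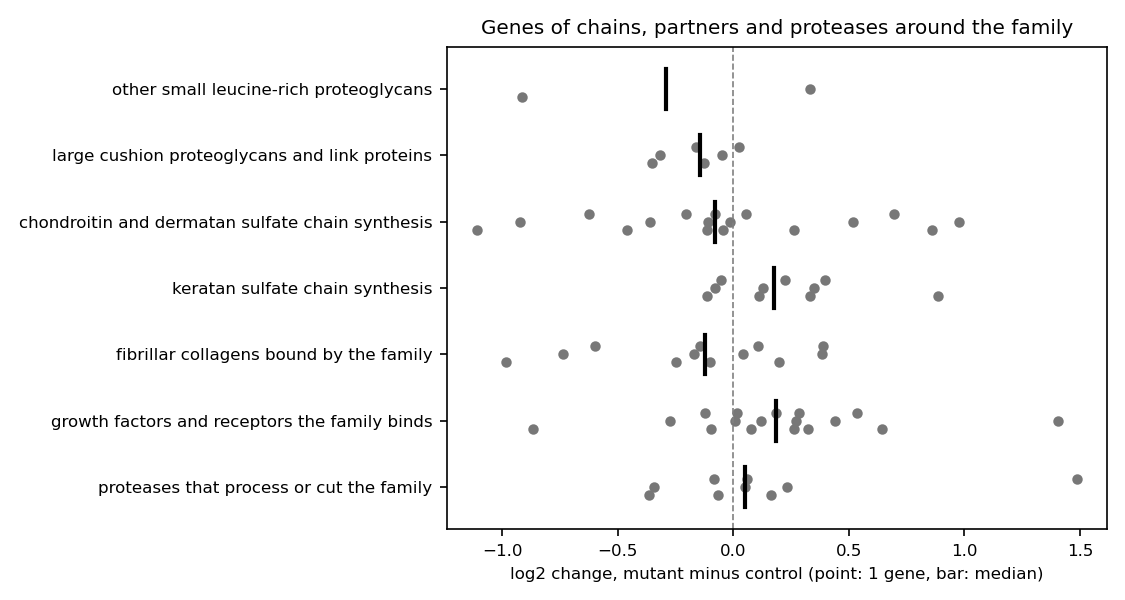
Each point is 1 gene on its brightest tested probe set, placed by its log2 change, mutant minus control, and the bar is the median of its list. Medians run from -0.29, over 2 genes, to 0.18, and 0 of the genes shown passed the test.

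Marker lists of cells that could hold these transcripts were summed on each array. The summed signal of 10 cushion mesenchyme markers was 24140 to 29360 on mutants and 33320 to 34940 on controls, without overlap, with 8 of 10 negative and 0 past the threshold. For 4 of these 10 genes every mutant lay below every control, against 3.19% of all genes tested. The median change of this list was -0.58, and -0.53 without controls 2 and 3. With median-centred arrays it lay 0.22 below that of all probe sets, with Sox9 at -0.06 and Foxc2 at -0.08, but Twist1 at -1.02, relative to that median. The summed signal of 10 epicardial markers, of which 9 were tested, was 8684 to 12580 on mutants and 6129 to 7413 on controls, with 9 of 9 positive and 0 past the threshold. Smooth muscle and fibroblast markers summed to 18140 to 19430 on mutants and 16650 to 18590 on controls, which overlap, with 6 of 6 tested positive and 0 past the threshold. Without controls 2 and 3, 4 of these 6 genes were positive and 2 negative, and of the 9 epicardial genes 8 were positive and 1 negative. The part of these markers in the values of Bgn and Dcn was not tested.

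Other markers checked the tissue. Cardiomyocyte markers summed to 105000 to 108400 on mutants and 96600 to 101000 on controls, 10 of 10 positive, with 0 past the threshold on the brightest probe set. Over all 19 probe sets of this list, 1 dimmer probe set was called higher, against 0.0259% of all probe sets. Endothelial markers summed to 9331 to 10160 on mutants and 11390 to 12010 on controls, while 6 of the 10 genes were positive and the median change was 0.31. Over all 16 probe sets of this list, 1 was called lower, that of Tek, against 0.0185% of all probe sets. Tek was the brightest gene of this list, at 11.7 to 11.9 on mutants and 12.4 to 12.6 on controls, and so weighed most in the sum. Npr3 was lower on every mutant than on every control, with a change of -0.56 (SE 0.17, limma adjusted p = 0.250). Tie1 and Emcn had positive changes of 1.26 and 0.59 (limma adjusted p = 0.250 and 0.255). Tie1 was above background on only 2 controls, and its change was 0.885 without controls 2 and 3. Npr3, Tie1 and Emcn did not pass. The sum and the count of signs thus ran in opposite directions. Markers of the canal muscle, of which 6 of 7 were tested and Cacna1g was not above background, overlapped with 18530 to 19710 on mutants and 18510 to 19500 on controls. Erythroid markers overlapped too, with 36750 to 45940 on mutants and 36790 to 55060 on controls and 7 of 7 tested negative. Macrophage markers were near background, with 2 of 8 tested, Adgre1 not above background on any array, and sums of 550 to 864 on mutants and 518 to 743 on controls.

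**Figure D5:**
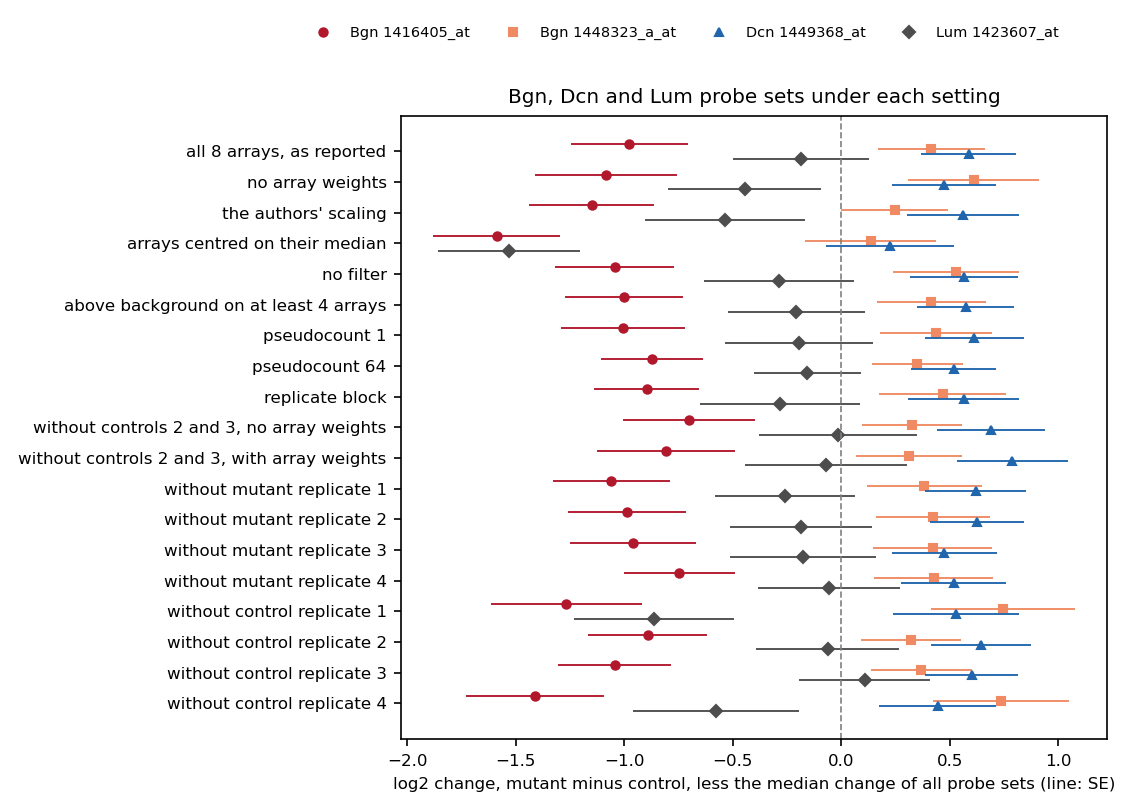
Log2 change, mutant minus control, less the median change of all probe sets, of 4 probe sets under each of 19 settings, with the SE as a line. Bgn 1416405_at stays below 0 and Bgn 1448323_a_at and Dcn 1449368_at above it in every setting shown, while Lum 1423607_at lies above 0 without control 3.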

How the data were processed

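The authors deposited probe set intensities on a linear scale (MAS5 is named in the submitters' processing notes), with the plain mean at 714.971 on every array. Version, background step and detection calls are not given in the sources used here. Depth does not apply to arrays, and the 4 arrays per group limit the precision. Symbols came from the platform annotation. In R 4.3.3, log2(intensity + 16) was quantile normalized, 64 array controls and the 40% of probe sets dimmest over all 8 arrays were left out, and 27022 probe sets were fitted with limma 3.58.1 (array weights, eBayes with trend and robust, two-sided, threshold 0.05). Log2 changes understate those of dim genes. Changes are weighted, group means are not. All member probe sets were named, and up to 4 genes per list with the smallest p. Lists were described on the brightest tested probe set of each gene. Members and lists were chosen with earlier results of these data known. The fit was tested on simulated data. Figures were drawn with matplotlib 3.10.9. Tried as alternatives were scaling, filter, pseudocount, array weights, replicate block and left-out arrays.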

Additional observations from a re-analysis of the deposited data

Results flagged for a closer look

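In 2 of the 36 groups of 4 arrays examined (18 probe sets in mutants and in controls), 1 array stood apart by Dixon's test at the 95% level. Chance gives about 1 in 20 groups. On Dcn 1449368_at, control 4 read 7.94 while the other controls read 8.31 to 8.38 (Dixon ratio 0.847). On Fmod 1415939_at, control 4 read 6.69 while the other controls read 4.75 to 5.06 (Dixon ratio 0.838). Without control 4 the change of Dcn 1449368_at was 0.48.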

How the results depend on the processing

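The number of member probe sets called was 0 in all alternatives except 6 with median-centred arrays and 0 to 1 with single arrays left out. Over all probe sets, 7 higher and 5 lower became 6 and 10 without array weights, 41 and 22 on the authors' scaling, 17318 and 1833 with median-centred arrays, 14 and 12 with no filter, 22 and 12 with a pseudocount of 64, and 1 and 1 without controls 2 and 3, with or without array weights. Leaving out 1 array at a time, the counts ranged over 3 to 1417 (higher) and 2 to 371 (lower). The cause was not tested. The share of calls that were higher was 58.3%, against 37.5% without array weights, 90.4% with median-centred arrays, 43.3% with the replicate block and 27.8% without mutant 3. With the replicate number as a block, 26 were higher and 34 lower, 0 of them members. Pairing by number was not shown. Deviations of same-numbered arrays correlated at -0.12, 0.01, -0.13 and 0.17, and 1 of 4 mutants correlated best with its own number. So few values cannot exclude pairing. With median-centred arrays, changes past the threshold were 1.27 for Bgn 1448323_a_at, 1.36 for Dcn 1449368_at, 1.85 for Fmod 1456084_x_at, -1.26 for Ogn 1419662_at, -2.16 for Aspn 1416652_at and 0.78 for Bgn 1437889_x_at, which lay 0.36 below the median of all probe sets, 1.13, and so turned. Over the 18 alternatives the change of Bgn 1416405_at ran from -1.38 to -0.45, of Bgn 1448323_a_at from 0.15 to 1.27 and of Dcn 1449368_at from 0.46 to 1.36. Members with signals below the background of controls 2 and 3 are limited by it.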
